A study of Mus musculus with 3 samples.

Results

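The TALE cofactors *Pbx2*, *Pbx3*, *Pbx4*, *Meis1*, *Meis2*, *Meis3*, *Pknox1* and *Pknox2* were followed in bulk RNA-Seq counts of E10.5 mouse maxillary processes. These 8 genes were chosen by name among 55401 listed genes, and all 8 had a mean count of at least 10, as 17115 genes did. The 3 libraries came from *wnt1cre; Rosa26Dlx2/-* embryos, in which Cre under *wnt1* control removes a stop cassette at *Rosa26* so that a CAG-driven, 3xFlag-tagged *Dlx2* is switched on in neural crest cells and their descendants. They are called OE replicates 1, 2 and 3 here, in the order of their sample records, since the labels give no replicate numbers. The dissected tissue also holds cells that do not derive from the neural crest, such as epithelium, vessels and blood, in which this Cre is not known to act. Wild-type libraries were not analysed here, and no genotypes were compared.

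PBX, MEIS and PKNOX proteins are homeodomain transcription factors whose homeodomain carries an extended loop, which gives the TALE class its name. PBX proteins bind DNA together with HOX proteins and with other homeodomain partners, and MEIS and PKNOX proteins bind PBX directly and help to keep it in the nucleus. The mesenchyme of the maxillary process forms from cranial neural crest that does not use *Hox* genes, so *Hox* genes, the best known partners, were read here beside the cofactors. In mice, *Pbx* genes are needed for fusion of the midface and *Meis2* is needed in the neural crest for the craniofacial skeleton.

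*Dlx2*, the overexpressed gene, was at 235, 201 and 183 CPM (counts per 1000000 counts on genes) in OE replicates 1, 2 and 3, and its reads do not separate the *Rosa26* allele from the endogenous gene. The 12 cranial mesenchyme genes of the list all reached 1 CPM in each library, led by *Prrx1* (543 ± 110 CPM, SD, n = 3) and *Barx1* (556 ± 324). The libraries differed in other cells. The 9 neuron genes summed to 273 CPM in replicate 1 and to 24.3 and 35.9 in replicates 2 and 3, with 9 of 9 highest in replicate 1. The 7 eye and forebrain genes summed to 25.03, 158 and 146 CPM, and the 9 pigment cell genes to 6.84, 39.0 and 166. No neuron or eye marker was at 0 in any library, while *Tyr*, *Tyrp1* and *Oca2* were at 0 in replicate 1. The 8 epithelium genes summed to 403, 263 and 261 CPM, the 6 glia genes to 98.2, 25.2 and 26.4, the 6 endothelium genes to 292, 325 and 241, the 6 macrophage genes to 19.6, 23.5 and 20.9, the 5 muscle genes to 25.3, 24.8 and 63.8, and the 5 blood genes to 2108, 3950 and 4887. In whole tissue, fewer cells of a type and less RNA per cell cannot be told apart. The part of these differences in the values of the TALE cofactors was not tested.

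The loci of the 8 genes differ widely in size, which matters for how they were counted. On GRCm38 (mm10, GENCODE M21), *Pbx2* (ENSMUSG00000034673) lies at chr17:34591266-34597400 on the plus strand, spans 6135 bp and has 3640 exonic bases. *Pbx3* (ENSMUSG00000038718, chr2:34171457-34373142, minus) has 6109 exonic bases and *Pbx4* (ENSMUSG00000031860, chr8:69832491-69872292, plus) has 2217, the fewest of the 8. *Meis1* (ENSMUSG00000020160, chr11:18879817-19018985, minus) has 10532, *Meis2* (ENSMUSG00000027210, chr2:115863064-116065839, minus) has 12043, the most, and *Meis3* (ENSMUSG00000041420, chr7:16175090-16186504, plus) has 3173. *Pknox1* (ENSMUSG00000006705, chr17:31564734-31607693, plus) has 6933 and *Pknox2* (ENSMUSG00000035934, chr9:36890982-37147407, minus) has 10335. All 8 are protein-coding, and their coding bases run only from 1136 for *Pbx4* to 1578 for *Meis1*, so most of the difference in exonic length is untranslated sequence. Few exonic bases are shared with other genes. *Meis1* shares 9.77% with *Gm37818* on its own strand and 8.51% with the antisense *Gm16140*, *Pbx2* shares 6.24% with *Gpsm3*, and *Pknox1* shares 2.24% with the antisense *AC166172.4*. Without a stated strand setting, reads of *Meis1* and *Pknox1* cannot be told apart from those of their antisense partners there. *Gpsm3* had 234, 210 and 331 counts, and *Gm37818* and *Gm16140* had at most 15 in any library. *AC166172.4* had 56, 65 and 59, beside 883, 799 and 919 for *Pknox1*.

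Sequences before the start site are in the RefSeq promoter table (GRCm38.p6) for 5 of the 8 genes: *Pbx2*, *Pbx4*, *Meis1*, *Meis2* and *Meis3*. The 250 bases before the start are shown for *Pbx2*, the most abundant of the 8, and for *Meis1*, since these 2 windows hold at most 16 annotated exonic bases. The windows of *Pbx4*, *Meis2* and *Meis3* hold 133, 170 and 160. Capitals mark CpG dinucleotides, and the sequences read 5′ to 3′ on the strand of the gene. The start is that of RefSeq, and for *Pbx2*, *Meis2* and *Meis3* the window lies inside the longer GENCODE locus given above.
*Pbx2*, chr17:34592009-34592258, plus strand: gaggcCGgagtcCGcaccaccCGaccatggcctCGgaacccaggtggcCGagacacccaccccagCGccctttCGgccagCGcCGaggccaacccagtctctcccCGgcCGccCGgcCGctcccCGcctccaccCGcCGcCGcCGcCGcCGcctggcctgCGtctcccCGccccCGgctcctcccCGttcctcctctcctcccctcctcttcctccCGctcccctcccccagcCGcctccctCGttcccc
*Meis1*, chr11:19018970-19019219, minus strand: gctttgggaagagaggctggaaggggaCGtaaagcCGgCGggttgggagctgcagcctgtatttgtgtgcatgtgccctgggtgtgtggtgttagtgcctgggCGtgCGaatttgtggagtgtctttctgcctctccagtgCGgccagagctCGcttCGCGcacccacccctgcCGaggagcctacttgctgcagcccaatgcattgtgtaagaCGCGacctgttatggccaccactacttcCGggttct
The *Pbx2* window has 27 CpG and 77.6% G and C, and the *Meis1* window has 13 CpG and 59.6%. Over all 32851 promoters of the table the medians were 6 CpG and 52.4%. The *Meis2* window, at 47.6% and 7 CpG, was the poorest in G and C of the 5.

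Cofactor motifs were then searched on both strands of the 300-base windows, which run from 250 bases before to 50 bases after the start. The motif TGACAG, bound by MEIS and PKNOX homeodomains, was in 19.2% of all promoters. TGATNNAT, bound by PBX with HOX, was in 8.85%. TAATTA, bound by many homeodomains with DLX among them, was in 5.29%. None of these motifs contains another of them. Each had 0 matches in the windows of the 5 cofactor genes, which says only that these letters are not in these windows.

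*Pbx2*, which overlaps in function with other *Pbx* genes in limb and midface, was the most abundant cofactor. It had 10278, 9880 and 12713 counts, or 266, 278 and 337 CPM in replicates 1, 2 and 3 (294 ± 38.3 CPM, SD, n = 3), and ranked 513 among all genes. Replicate 3 was the highest. *Pbx3*, which is known for its role in neurons that control breathing, had 2360, 2137 and 1911 counts, or 61.1, 60.0 and 50.7 CPM (57.3 ± 5.72). Replicate 3 was the lowest here. *Pbx4*, known mainly from the adult testis, had 107, 150 and 316 counts, or 2.77, 4.21 and 8.39 CPM (5.13 ± 2.92), so its highest library stood 3.03 times above its lowest. Its mean was 3.60 CPM without replicate 3.

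*Meis2* was the most abundant of the *Meis* genes, with 7656, 6135 and 4318 counts. This gave 198, 172 and 115 CPM (162 ± 42.9, SD, n = 3), rank 1236, and a level that was 1.73 times higher in replicate 1 than in replicate 3. *Meis1*, a cofactor also known from blood stem cells and the lens, had 1530, 1518 and 1166 counts, or 39.6, 42.6 and 31.0 CPM (37.7 ± 6.07). It too was lowest in replicate 3. *Meis3*, known from hindbrain patterning in frog embryos, had 1109, 1027 and 1668 counts, or 28.7, 28.9 and 44.3 CPM (34.0 ± 8.94), and was highest in replicate 3, with replicates 1 and 2 nearly equal.

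The PKNOX genes are also called *Prep* genes. *Pknox1*, which is needed for early embryonic survival, had 883, 799 and 919 counts, or 22.9, 22.4 and 24.4 CPM (23.2 ± 1.02, SD, n = 3). *Pknox2* had 1345, 1215 and 1113 counts, or 34.8, 34.1 and 29.5 CPM (32.8 ± 2.88). The 8 genes together summed to 655, 642 and 640 CPM (646 ± 7.77). That evenness depends on the scaling, since per 1000000 counts without TMM factors the sums were 691, 647 and 602 (647 ± 44.6).

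**Figure D1:**
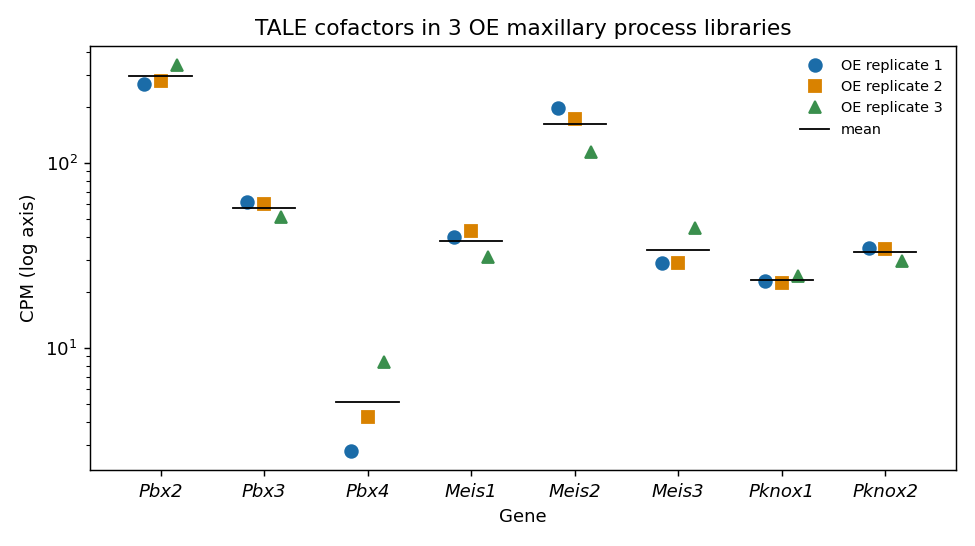
CPM on a log axis for each TALE cofactor in the 3 OE libraries (points) with the mean (bar). *Pbx2* and *Meis2* have the highest means, at 294 and 162 CPM, and *Pbx4* the lowest, at 5.13 CPM, with its 3 libraries farthest apart.

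Levels of different genes were compared per length, as CPM per kb of exonic bases. *Pbx2* led at 80.7 ± 10.51 CPM per kb (SD, n = 3), followed by *Meis2* at 13.4 ± 3.56, *Meis3* at 10.7 ± 2.82 and *Pbx3* at 9.38 ± 0.937. *Meis1* (3.58 ± 0.577), *Pknox1* (3.35 ± 0.148), *Pknox2* (3.18 ± 0.279) and *Pbx4* (2.31 ± 1.32) formed the lower end. Of the 7 pairs of neighbours in this order, 2 had ranges that did not overlap: *Pbx2* above *Meis2*, and *Pbx3* above *Meis1*. The other 5 pairs, among *Meis2*, *Meis3* and *Pbx3* and among *Meis1*, *Pknox1*, *Pknox2* and *Pbx4*, did not differ beyond their spread. With 3 libraries a two-sided exact permutation test of 3 values against 3 cannot go below 0.10, and a paired one cannot go below 0.25, so no such test was run.

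On this scale *Pbx2* made up 60.8%, 62.5% and 67.4% of the summed level of the 8 genes in replicates 1, 2 and 3. *Meis2* made up 13.7%, 11.7% and 6.92%, and *Meis3* 7.52%, 7.45% and 10.1%. Within a library, the level of *Meis2* per kb was 4.38, 3.53 and 3.24 times that of *Meis1*, higher in 3 of 3 libraries (log2 ratio 1.88 ± 0.223, SD, n = 3). *Meis2* against *Meis3* was 1.82 and 1.57 times in replicates 1 and 2 but 0.682 times in replicate 3, so their order per exonic base turned in that library. Per coding base it did not, at 5.38, 4.66 and 2.02 times. With a trend over length and GC content taken out of each library, replicate 3 minus the mean of the others was -0.11 for *Meis2* and 0.16 for *Meis3* on the log2 scale, in place of -0.69 and 0.62. *Pbx2* stood 7.31, 7.76 and 11.2 times above *Pbx3* (log2 ratio 3.10 ± 0.331), and *Pbx3* stood 8.004, 5.17 and 2.19 times above *Pbx4*. *Pknox1* and *Pknox2* were at 0.979, 0.980 and 1.23 times, close to equal.

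The partner families were also set side by side as sums per kb. *Meis1*, *Meis2* and *Meis3* together were at 29.3, 27.5 and 26.4 CPM per kb, and *Pbx2*, *Pbx3* and *Pbx4* together at 84.4, 88.0 and 104.8. The *Meis* sum was thus 0.347, 0.312 and 0.252 times the sum of these 3 *Pbx* genes. These ratios depend on which bases are taken as the length of a gene. Per coding base *Meis2* (108 ± 28.7 CPM per kb) came closer to *Pbx2* (228 ± 29.7), *Pbx3* (43.2 ± 4.31) stood above *Meis3* (29.1 ± 7.67), and *Pknox2* (22.9 ± 2.01) stood above *Pknox1* (17.5 ± 0.771). *Pbx2* and *Meis2* kept the top 2 places and *Pbx4* the last.

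Against this, the 39 *Hox* genes were close to absent. At most 3 counts were seen in every library for 35 of them, and 22 of these had 0 throughout, which allows each up to 0.0777, 0.0843 and 0.0796 CPM in replicates 1, 2 and 3. The other 4 passed 3 counts, each in replicate 1 only. These were *Hoxb1* with 9, 3 and 1 counts, *Hoxa2* with 6, 0 and 0, *Hoxb4* with 5, 1 and 0, and *Hoxd11* with 4, 0 and 0. *Hoxa2*, which marks the second pharyngeal arch and the hindbrain behind the territory of the maxillary process, thus had 0 counts in 2 libraries. All *Hox* genes together summed to 36, 13 and 11 counts, or 0.933, 0.365 and 0.292 CPM, beside the 640 to 655 CPM of the 8 cofactors. Replicate 1, with the highest *Hox* sum, was also the library with the highest neuron, glia and epithelium sums (273, 98.2 and 403 CPM), and the part of those cells in the *Hox* counts was not tested.

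**Figure D2:**
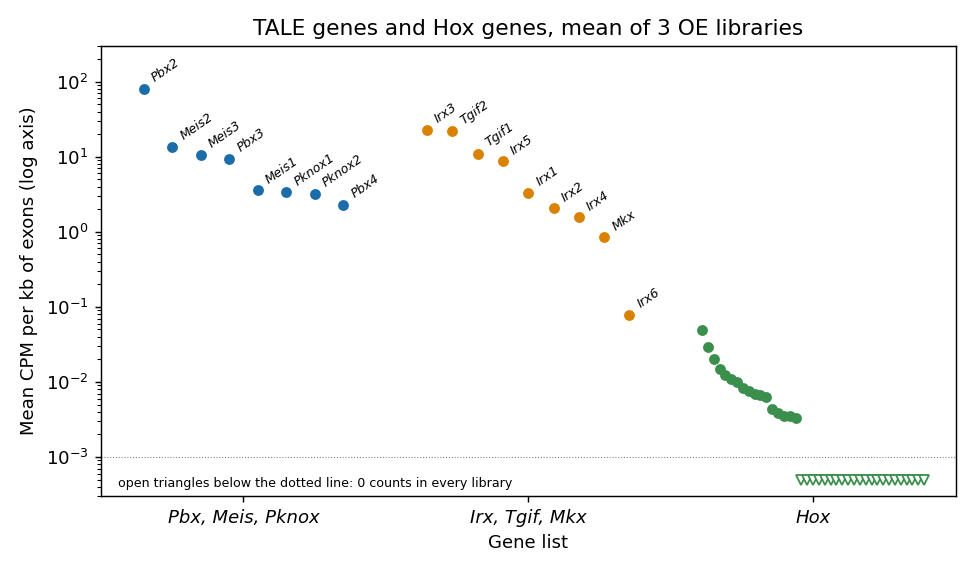
Mean CPM per kb of exons over the 3 OE libraries, on a log axis, for the 8 cofactors, 9 other TALE homeobox genes and 39 *Hox* genes (1 point per gene, open triangles for genes at 0 in every library). All 8 cofactors lie above 2 CPM per kb and all *Hox* genes below the lowest other TALE gene, *Irx6* (0.0788 CPM per kb).

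Of 9 other TALE homeobox genes, 8 reached 1 CPM in each library. The most abundant were *Tgif2* (63.7, 67.5 and 122 CPM) and *Tgif1* (59.6, 60.4 and 65.4 CPM), which encode repressors of TGF-beta and retinoic acid signalling, and *Irx3* (38.6, 52.6 and 100 CPM) and *Irx5* (26.4, 24.98 and 30.4 CPM), which pattern several embryonic tissues. *Tgif2* and *Irx3* were clearly highest in replicate 3. *Irx6* was lowest, with 7, 3 and 20 counts. Their sum was 215, 221 and 344 CPM, and 7 of the 9 were highest in replicate 3, as were 4 of the 8 cofactors and 43.2% of all tested genes.

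Proteins other than HOX that bind with PBX or MEIS were covered by a list of 11 genes, *Dlx2* among them. *Dlx2* (206 ± 26.7 CPM, SD, n = 3) and *Zfp462* (149 ± 49.5), which encodes a zinc-finger protein that binds PBX, were the most abundant. *Pbxip1*, the gene of a PBX-interacting protein, was at 27.0, 24.4 and 31.1 CPM. *Pax6*, an eye gene whose protein works with MEIS2, was at 4.85, 30.7 and 24.9 CPM and is itself 1 of the 7 eye and forebrain genes. *Otx2* was at 8.60, 11.9 and 13.2 CPM. The pancreatic partner *Pdx1* had 0 counts in every library and *En1* had 7, 0 and 8. Among 5 genes that depend on *Pbx* in the midface, *Snai1* was at 60.7, 61.2 and 65.9 CPM and *Wnt3* at 4.95, 4.92 and 4.25, while *Wnt9b* was at 9.95, 15.5 and 11.4. *Trp63*, which acts in the epithelium, was at 55.4, 29.6 and 11.4 CPM and was highest in replicate 1. It is itself 1 of the 8 epithelium genes.

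How far the cofactors varied between libraries was tested gene by gene. A chi-square test with Benjamini-Hochberg adjustment at 0.05 put 7 of 8 beyond sampling noise, beside 81.5% of all 17115 genes tested, so the share is near that of genes in general. The adjusted p was 1.31e-186 for *Meis2*, 1.62e-81 for *Pbx2*, 2.01e-38 for *Meis3*, 1.49e-27 for *Pbx4*, 4.24e-16 for *Meis1*, 8.91e-10 for *Pbx3* and 0.000115 for *Pknox2*. *Pknox1* did not pass, at 0.212. This test compares libraries, not conditions, and at counts this high small differences pass it. Without replicate 3, 3 of 8 passed, namely *Meis2*, *Pbx2* and *Pbx4*, beside 48.8% of all genes. It was 7 of 8 without replicate 1, beside 71.2%, and without replicate 2, beside 77.7%. With every gene of at least 1 count tested it was again 7, beside 53.4%.

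The size of the spread was below that of the median gene for most of the 8. The SD of log2 CPM over the 3 libraries had a median of 0.21 over the cofactors and of 0.39 over all tested genes, and 2 cofactors lay above the latter, *Pbx4* at 0.80 and *Meis2* at 0.41. *Meis3* was at 0.36, *Meis1* at 0.24, *Pbx2* at 0.18, *Pbx3* at 0.15, *Pknox2* at 0.13 and *Pknox1* at 0.06. The biological coefficient of variation (BCV) is meant as the spread relative to the mean once counting error is taken off. Here it comes from a dispersion drawn toward that of other genes, so it is not a gene's own spread. *Pknox1*, not beyond sampling noise, was given 0.245 with CPM of 23.2 ± 1.02. The BCV ran from 0.226 for *Pbx3* to 0.471 for *Pbx4*. Its median was 0.248 over the cofactors and 0.339 over all tested genes. The median SD and the median BCV both moved with the libraries included. Without replicate 3 the median SD was 0.0317 over the cofactors and 0.154 over all tested genes, and without replicate 2 the median BCV was 0.383 and 0.444. For the 9 other TALE genes the median SD of log2 CPM was 0.50. Their median level was 8.58 CPM, against 35.9 CPM for the cofactors. Neither these genes nor all tested genes were matched to the cofactors for count. *Pbx4*, with the fewest counts of the 8, had the largest SD.

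The cofactors that were high and low in replicate 3 differ in exonic length and in GC content. On log2 CPM, replicate 3 minus the mean of replicates 1 and 2 was -0.69 for *Meis2*, -0.41 for *Meis1*, -0.26 for *Pbx3* and -0.22 for *Pknox2*, and was 1.28 for *Pbx4*, 0.62 for *Meis3*, 0.31 for *Pbx2* and 0.11 for *Pknox1*. The 3 shortest genes, *Pbx4*, *Meis3* and *Pbx2*, are the 3 highest of these, and the longest gene, *Meis2*, is the lowest. The order is not strict, since *Pknox1* and *Pknox2* are longer than *Pbx3* but higher. With library totals as the scaling *Pknox1* was at -0.03. Those 3 shortest genes are also the richest of the 8 in G and C over their transcripts, at 57.2%, 58.4% and 55.4%, against 47.4% for *Pbx3*, 47.2% for *Meis2* and 44.6% for *Meis1*, so length and GC content were not separated. Over the table as a whole, the median of this difference was 0.81 for genes under 1000 exonic bases, 0.03 for genes of 3000 to 4000 bases, and -0.66 for genes of 12000 bases or more. Why replicate 3 differs in this way was not tested.

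**Figure D3:**
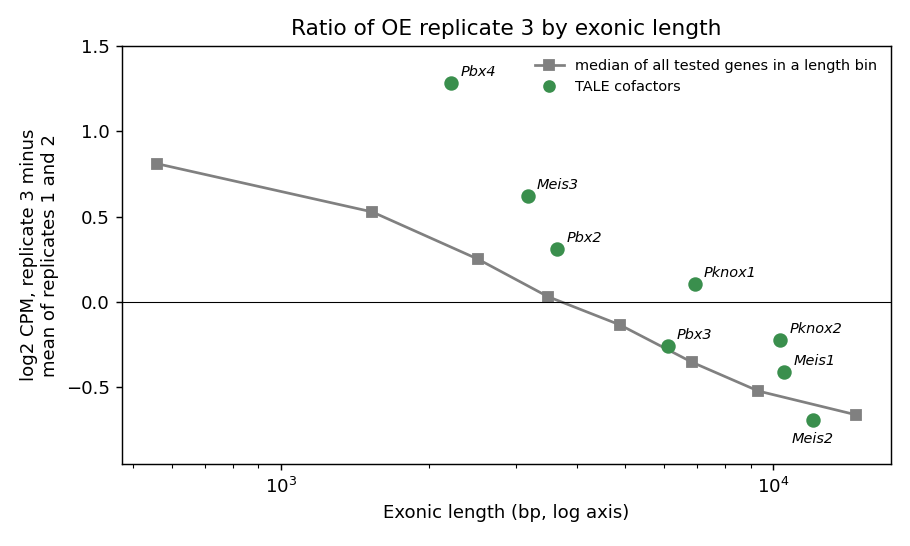
Log2 CPM of OE replicate 3 minus the mean of replicates 1 and 2 against exonic length (log axis), for the 8 cofactors (points) and as the median of all tested genes in each of 8 length bins (line). *Meis2* (-0.69) lies near the median of its bin (-0.66). *Pbx4* (1.28, bin 0.25), *Meis3* (0.62) and *Pbx2* (0.31, both bin 0.03) and *Pknox1* (0.11, bin -0.35) lie above theirs. So do *Pknox2* (-0.22) and *Meis1* (-0.41, both bin -0.52) and *Pbx3* (-0.26, bin -0.35).

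Each library was therefore freed of a smooth trend over exonic length and GC content. The ratio of replicate 3 then went from -0.69 to -0.11 for *Meis2*, from 0.31 to 0.03 for *Pbx2* and from 0.62 to 0.16 for *Meis3*. For *Pbx4* it went from 1.28 to 0.71, so this gene stayed apart, and its ratio in replicate 1 went from -1.09 to -0.70. *Meis1*, *Pbx3* and *Pknox2*, which were lower in replicate 3 as counted, stood at 0.26, 0.14 and 0.07 with the trend removed, a change of sign. *Pknox1* moved away from 0, from 0.11 to 0.33. The SD of log2 CPM became smaller in 7 of 8 cofactors, beside 64.7% of all tested genes, and its median over the 8 went from 0.21 to 0.09, beside 0.39 to 0.29 over all. *Pbx4* (0.47) was then the only one of the 8 above that median, *Meis1* was at 0.22, *Pknox1* at 0.19 and *Pbx2* at 0.02.

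**Figure D4:**
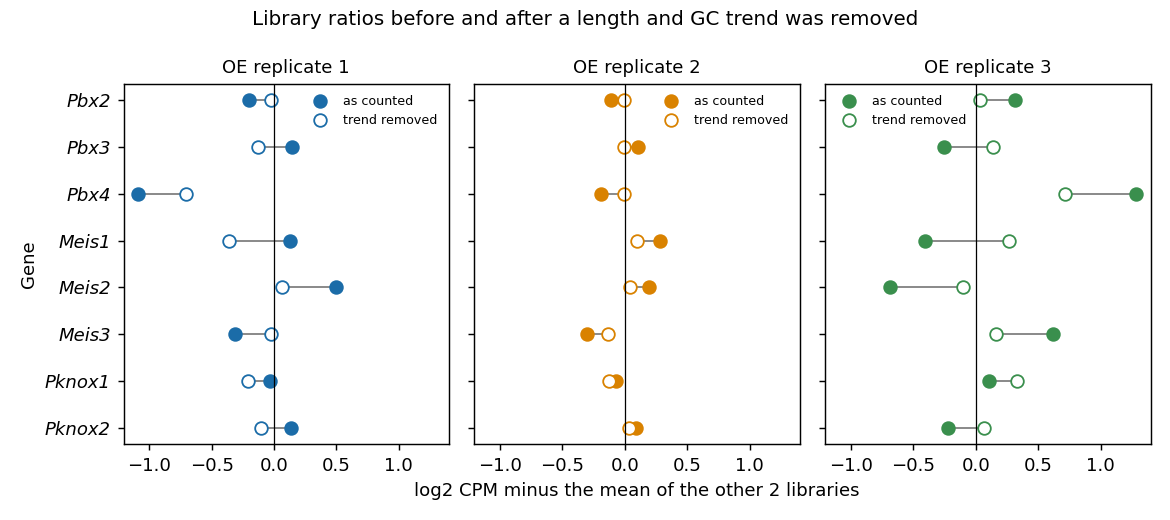
Log2 CPM of each OE library minus the mean of the other 2 for the 8 cofactors, as counted (filled) and with a trend over exonic length and GC content taken out (open). As counted 3 genes reach 0.5 in some library, *Pbx4*, *Meis2* and *Meis3*, and with the trend removed only *Pbx4* does.

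The pattern of each cofactor over the 3 libraries was also matched with the genes of the other lists, by the Euclidean distance of log2 CPM centred on each gene's mean. For *Pknox1* the nearest were *Snai1* (0.0272), *Tgif1* (0.0360) and *Mkx* (0.0492), all nearly flat. For *Meis2* they were *Tek* (0.0664), *Prrx1* (0.145) and *En2* (0.176), and for *Meis3* they were *Twist1* (0.125), *Prrx2* (0.129) and *Krt14* (0.137). *Pbx4* was nearest to *C1qa* (0.118), *Twist2* (0.132) and *Irx3* (0.149). *Wnt3* was the nearest for *Pbx3* (0.0369), *Pknox2* (0.0165) and *Meis1* (0.179). *Pbx2* was near *Irx5* (0.111) and *Krt14* (0.119). With only 3 libraries such likeness is common. Over the table, 366 tested genes were at least as near to *Meis2* as *Tek*, and 30 were at least as near to *Pknox2* as *Wnt3*.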

How the data were processed

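Poly-A selected RNA of E10.5 maxillary processes was sequenced as 150 bp paired-end reads in 3 libraries. The authors mapped the reads to mm10 with STAR 2.7.3a and deposited raw counts per gene, as whole numbers without normalization. HTSeq 0.12.4 is named in the submitters' processing notes, and the strand setting and annotation release are not given in the sources used here. Rows that name no gene held 14.2% to 16.4% of the counted reads and were left out of library sizes. Counts on genes ran from 35351031 to 40057435, so that 0 counts allow a level of up to 0.0777 to 0.0843 counts per 1000000 counts on genes (CPM) with a limit of 3 counts, for counting error only. The study's methods speak of 3 independent RNA samples. Neither they nor the labels say whether embryos were pooled or shared, so p-values apply only to these samples. The p-values measure departure from counting noise, not the size of the spread.

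Identifiers were matched to GENCODE M21 (GRCm38) without the version, and 260 of 55401 had no row there. CPM used TMM scaling in edgeR 4.0.16. Counts of each gene were compared with the scaled library sizes by a chi-square test with 2 degrees of freedom, with Benjamini-Hochberg adjustment at 0.05 over every gene whose mean count was 10 or more. Log2 CPM took a prior count of 2 for replicate SDs and library ratios. The biological coefficient of variation (BCV) is the square root of the tagwise dispersion of an intercept-only model, which is drawn toward the dispersion of other genes. As an alternative, mgcv 1.9.3 was used to fit and take out of each library a smooth trend over exonic length and GC content. DESeq2 1.42.0 gave other size factors and dispersions. The steps were tested on simulated data. R 4.3.3, Python 3.11.15 and matplotlib 3.10.9 were used.

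The 8 members and all lists were chosen with earlier results of these data known, so nothing here is independent support for those results. The genes named were set by rule: all members, up to 5 of the most abundant genes of each other list, genes that share exonic bases with a member, *Dlx2*, and the list genes nearest to a member in pattern. Wild-type libraries were not analysed here, and some genes that the rule covers are not reported. The ratios of *Meis2* to *Meis3*, *Pbx3* to *Pbx4* and *Pbx2* to *Meis2*, the scalings of the summed level, the motifs and promoter windows, and *Hoxd11*, *Irx6*, *Pdx1*, *En1*, *Tyrp1* and *Oca2* as named genes, were chosen after the data were seen.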

Additional observations from a re-analysis of the deposited data

How the results depend on the processing

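Each result was recomputed under the alternatives set for it. Scalings were changed for levels, their sum, spread, library ratios and the number beyond counting noise, the filter on low counts for spread and that number, the dispersion estimate for the BCV, the prior count and the trend on exonic length and GC content for the SD and the library ratios, the gene length for the order and the paralog ratios, and the count limit for *Hox* genes. Leaving out a replicate was run for all of these but the library ratios and the summed level. There were 208 such values for 46 results, of which 176 moved by less than the replicate spread or, for counts, by no more than 1.5 times, 23 moved further and 9 reversed. With 2 of the 23, 11 values changed sign in all. Those 2 were library ratios of *Pknox1*, which was not beyond counting noise, with library totals as the scaling (to 0.09 in replicate 1 and -0.03 in replicate 3). For levels and paralog ratios, leaving out 1 of 3 libraries can hardly move the mean by as much as the SD. Being unmoved there is no sign of stability. Counted as unmoved were also a median SD of 0.0937 with the trend removed (0.212 as reported) and a median BCV of 0.134 without replicate 3 (0.248 as reported). No paired analysis was possible because all 3 libraries belong to 1 group.

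Leaving out 1 replicate at a time, the number of cofactors beyond counting noise ran from 3 to 7, the median SD from 0.0317 to 0.263, the median BCV from 0.134 to 0.383, and the number of the 8 cofactors that kept their place in the order from 4 to 8. The counts of 3 and 4 are those without replicate 3, as is the SD of 0.0317, while the BCV of 0.383 is that without replicate 2. The log2 ratio of *Pknox1* to *Pknox2* ran from -0.0299 to 0.135, that of *Meis2* to *Meis3* from 0.05 to 0.76 and that of *Meis2* to *Meis1* from 1.76 to 1.98. In place of exonic length, coding length left 4 of 8 in place and gave log2 ratios of 2.15 for *Meis2* to *Meis1*, 1.89 for *Meis2* to *Meis3*, 2.40 for *Pbx2* to *Pbx3*, 3.41 for *Pbx3* to *Pbx4*, -0.38 for *Pknox1* to *Pknox2* (0.08 as reported), 1.10 for *Pbx2* to *Meis2* and -0.78 for the *Meis* sum to the *Pbx* sum (-1.73 as reported). The construction of the ratio accounts for these, since the length enters it directly. With exonic bases shared with no other gene the *Meis2* to *Meis1* ratio was 1.59.

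With the trend removed, 1 cofactor in place of 3 reached a library ratio of 0.5. The sign changed for *Pbx3* in replicates 1, 2 and 3 (to -0.13, -0.0094 and 0.14), for *Meis1* in replicates 1 and 3 (to -0.36 and 0.26) and for *Pknox2* in replicates 1 and 3 (to -0.10 and 0.069), and the cause was not tested. Of the *Hox* genes, 35 to 39 stayed at or under the limit in every setting run. At these depths a gene at 0 counts is not shown to be absent, and 3 libraries of 1 genotype carry no information on a difference from wild type.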
